A study of Rattus norvegicus with 36 samples.

Results

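Interferon response genes were followed in the liver of 36 male rats given a flame retardant at 5 doses or its vehicle. The list held 47 genes known to be induced by interferon or to act in that response. A gene was measured when a probe set, a group of short probes on the array, was annotated with that gene and no other. By this rule 44 of the 47 genes were measured, by 56 probe sets, out of 14217 genes and 31042 probe sets on the array. Xaf1, Gbp5 and Ifi47 had no such probe set and were not analysed here. Where several probe sets named a gene, as for 11 of the 44, the one with the highest mean over the 36 animals stood for it.

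The animals were Harlan Sprague Dawley rats, 7 weeks old at the start, which received 1 gavage a day for 5 days with corn oil as the carrier, and the left liver lobe was taken 1 day after the last dose. The compound was tetrabromobisphenol A-bis(2,3-dibromopropyl ether), or TBBPA-DBPE, a brominated flame retardant. Groups of 6 animals received corn oil alone (0 mg/kg, called vehicle here) or the compound at 943 mg/kg, at 94.3 or 9.4 mg/kg, or at 0.94 or 0.1 mg/kg, so that every animal in the study had the gavage and the oil. Each animal gave 1 array, and the values are log2 expression values, on which a difference of 1 stands for doubled signal. Array medians lay between 4.59 and 4.66, and any pair of arrays correlated at 0.989 or more over all probe sets. Of 10 hepatocyte markers, 9 were measured and all 9 had a mean above the array medians. The tissue was whole liver, in which fewer cells of a type and less RNA per cell cannot be told apart.

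Interferons are signalling proteins, and those of type I are released mainly in response to viral and other foreign nucleic acids. Binding of type I interferon to its receptor activates a complex that includes Stat2 and Irf9 and binds a DNA element known as the interferon-stimulated response element, while interferon gamma acts through gamma-activated sites. The induced genes encode antiviral effectors, nucleic acid sensors, chemokines, the machinery that prepares peptides for MHC class I, and regulators that amplify or restrain the response. Liver expresses many of them at a low level without infection, in hepatocytes as well as in its resident macrophages, the Kupffer cells.

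The promoters of these genes show which of them carry those elements near the start. A promoter window of 300 bases, 250 before and 50 after the annotated start, was found in the RefSeq table of the rat genome build GRCr8 for 36 of the 44 genes. The motif GAAANNGAAA, searched on both strands as the core of the interferon-stimulated element, was present in 23 of the 36 windows (63.9%), against 3.92% of all 33469 windows. The motif TTCNNNGAA, the core of a gamma-activated site and the same on both strands, was present in 10 of the 36 (27.8%), against 8.87% of all windows. Of the 8 genes described in most detail, 5 had a window, and the 250 bases before their start are shown 5′ to 3′ on the strand of the gene, with matches to either motif in capitals. Irf7, Cxcl10 and Oas1a are shown because they hold a match, and Ubd and Mx1 because their windows hold none.
Irf7 (chr1:205800024-205800273, minus strand): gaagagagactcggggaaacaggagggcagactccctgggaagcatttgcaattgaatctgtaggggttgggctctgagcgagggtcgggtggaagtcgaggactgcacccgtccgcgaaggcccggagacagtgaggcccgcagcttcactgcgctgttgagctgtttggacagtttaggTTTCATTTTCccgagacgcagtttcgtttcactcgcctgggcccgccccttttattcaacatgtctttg
Cxcl10 (chr14:15988816-15989065, plus strand): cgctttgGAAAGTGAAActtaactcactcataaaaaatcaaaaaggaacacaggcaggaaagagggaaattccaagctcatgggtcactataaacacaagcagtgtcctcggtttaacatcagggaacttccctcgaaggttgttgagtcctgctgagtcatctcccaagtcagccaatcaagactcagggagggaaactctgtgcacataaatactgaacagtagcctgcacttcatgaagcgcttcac
Oas1a (chr12:41330216-41330465, plus strand): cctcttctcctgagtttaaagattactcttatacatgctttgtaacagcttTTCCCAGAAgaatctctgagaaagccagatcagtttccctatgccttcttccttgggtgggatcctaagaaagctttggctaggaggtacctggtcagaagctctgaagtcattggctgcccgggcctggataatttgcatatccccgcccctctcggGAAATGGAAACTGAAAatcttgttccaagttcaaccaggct
Ubd (chr20:1392686-1392935, minus strand): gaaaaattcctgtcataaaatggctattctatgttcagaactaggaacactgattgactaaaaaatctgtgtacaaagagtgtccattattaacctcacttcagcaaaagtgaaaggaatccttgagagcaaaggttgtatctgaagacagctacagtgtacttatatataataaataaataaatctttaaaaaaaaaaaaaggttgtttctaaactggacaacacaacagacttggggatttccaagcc
Mx1 (chr11:50294607-50294856, minus strand): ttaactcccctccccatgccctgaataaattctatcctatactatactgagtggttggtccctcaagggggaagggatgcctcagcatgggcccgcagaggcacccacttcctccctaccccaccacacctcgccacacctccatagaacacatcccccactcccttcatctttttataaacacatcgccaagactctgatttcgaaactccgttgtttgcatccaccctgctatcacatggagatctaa
In Irf7 the match lay on the strand opposite to the gene, with its first base 69 bases before the start. In Cxcl10 it began 243 bases before the start. Oas1a held overlapping matches to GAAANNGAAA at 41 and 35 bases before the start and a match to TTCNNNGAA at 199 bases. A match in letters is a description and no evidence of binding, and the absence of one says only that these letters are not in this window.

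The interferon response genes differed far more between animals of the same dose group than genes on the array usually did. The median SD within dose groups was 0.40 log2 over the 44 genes and 0.15 over all probe sets. Of the 44 genes, 32 (72.7%) lay among the 10% of probe sets with the highest such SD, above 0.22. The smallest SD was that of Psme1 (0.076), a subunit of the proteasome activator, and the largest was that of Ubd (1.49), which encodes the ubiquitin-like modifier FAT10. Dose groups accounted for little of this variation: the median share of variance lying between the 6 groups was 11.4% for the 44 genes and 13.4% for all probe sets.

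For some genes the 36 animals fell into separate ranges. A gene was said to divide the animals when its sorted values held a gap of at least 0.5 log2, a 1.41-fold step, with at least 4 animals on each side. This held for 6 of 44 genes, against 0.119% of all probe sets (37 of 31042): Ubd, Rtp4, Usp18, Irf7, Isg15 and Cxcl10. The smallest of their gaps was 0.56, in Cxcl10. The next largest gaps, in Mx1 and Oas1a (both 0.37) and Irf9 (0.36), were under the limit, and the median of the 44 gaps was 0.14. The other 38 genes therefore varied without a step of that size.

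**Figure D1:**
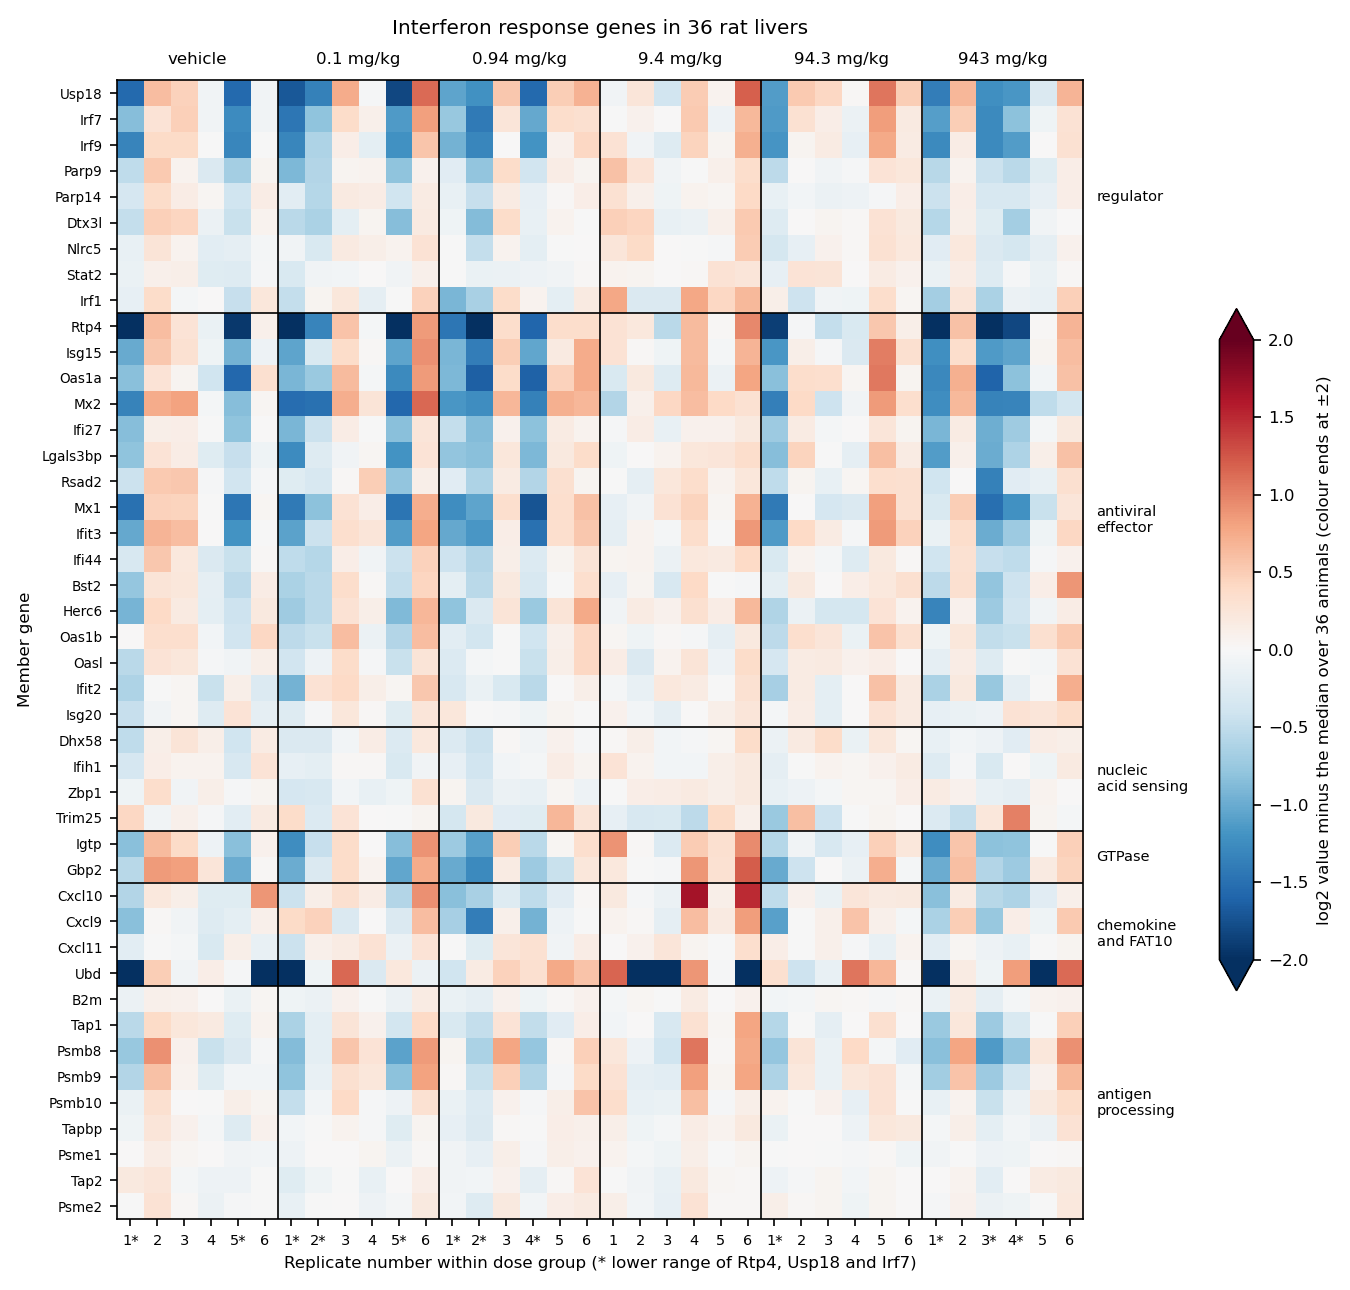
Log2 values of the 44 interferon response genes (rows, grouped by role) in 36 livers (columns, by dose group and replicate number), each minus the median of that gene over the animals; the colour scale ends at 2 in either direction. Columns marked with an asterisk are the 12 animals in the lower range of Rtp4, Usp18 and Irf7, and they run blue through most rows of the regulators, antiviral effectors and GTPases, but not through Ubd.

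Among the regulators, Irf7 and Usp18 divided the animals. Irf7, a transcription factor that drives interferon production and the expression of interferon-induced genes, lay between 5.85 and 6.55 in 12 animals and between 7.18 and 8.13 in the other 24. In vehicle animals Irf7 ran from 6.04 to 7.78 with a median of 7.23, at 0.1 mg/kg from 5.85 to 8.12 (6.95) and at 0.94 mg/kg from 5.88 to 7.65 (7.04). At 9.4 mg/kg it ran from 7.20 to 7.95 (7.35), at 94.3 mg/kg from 6.17 to 8.13 (7.46) and at 943 mg/kg from 6.03 to 7.80 (6.85). The groups overlapped throughout, and the 9.4 mg/kg group had no animal in the lower range.

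Usp18, a protease that removes ISG15 from proteins and restrains signalling at the type I receptor, lay between 4.69 and 5.45 in the same 12 animals and between 6.12 and 7.71 in the other 24. In vehicle animals it ran from 4.96 to 7.13 with a median of 6.44, at 0.1 mg/kg from 4.69 to 7.65 (5.82) and at 0.94 mg/kg from 4.96 to 7.21 (6.23). At 9.4 mg/kg it ran from 6.12 to 7.71 (6.67), at 94.3 mg/kg from 5.38 to 7.58 (6.96) and at 943 mg/kg from 5.13 to 7.19 (5.78). High and low animals were present in every group other than the 9.4 mg/kg group, whose 6 animals all lay in the upper range.

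The other regulators varied less. Irf9, the DNA-binding partner of Stat2, had the same 12 animals below its gap of 0.36, at 5.50 to 6.20 against 6.56 to 7.58, and its other probe set gave a gap of 0.37 with 12 animals below. Stat2 spanned 7.93 to 8.52 over all animals, a 1.51-fold range, with a largest gap of 0.07. Irf1, a transcription factor induced strongly by interferon gamma, spanned 6.40 to 8.10. Parp9 (6.80 to 8.28) and its partner Dtx3l (6.71 to 8.10), Parp14 (6.65 to 7.62) and Nlrc5 (3.90 to 4.89), which switches on MHC class I genes, had gaps from 0.09 to 0.18.

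Rtp4 was the most variable of the antiviral effectors. Its product helps to carry receptors to the cell surface, and its values lay between 6.27 and 7.14 in 12 animals and between 7.93 and 9.42 in 24, an 8.89-fold range in all. In vehicle animals Rtp4 ran from 6.32 to 9.08 with a median of 8.45, at 0.1 mg/kg from 6.44 to 9.32 (7.79) and at 0.94 mg/kg from 6.35 to 8.82 (7.91). In the 9.4 mg/kg group it ran from 7.93 to 9.42 (8.71), at 94.3 mg/kg from 6.59 to 9.0 (8.30) and at 943 mg/kg from 6.27 to 9.15 (7.57). The group means were 7.93 ± 1.19 (SD, n = 6) for vehicle and 7.66 ± 1.38 (SD, n = 6) at 943 mg/kg. The spread within each of these groups was larger than the difference between them. The 12 low animals were those that were low for Irf7 and Usp18.

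Isg15, the ubiquitin-like modifier that Usp18 removes, lay between 5.31 and 5.79 in 11 animals and between 6.38 and 7.71 in 25. In vehicle animals it ran from 5.69 to 7.24 with a median of 6.60, at 0.1 mg/kg from 5.64 to 7.61 (6.55) and at 0.94 mg/kg from 5.31 to 7.44 (6.33). In the 9.4 mg/kg group it ran from 6.61 to 7.38 (6.86), at 94.3 mg/kg from 5.53 to 7.71 (6.74) and at 943 mg/kg from 5.46 to 7.31 (6.20). All 11 low animals were among the 12 that were low for Rtp4, and the remaining animal of the 12, replicate 2 at 0.1 mg/kg, had the lowest Isg15 value above the gap.

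Mx1 and Oas1a showed the same animals at the bottom without a step of 0.5. Mx1, a dynamin-like GTPase that blocks viral ribonucleoproteins, ran from 3.23 to 5.20 in vehicle animals (median 4.75), from 3.27 to 5.46 at 0.1 mg/kg (4.38) and from 3.01 to 5.32 at 0.94 mg/kg (4.37). It ran from 4.57 to 5.43 at 9.4 mg/kg (4.89), from 3.31 to 5.55 at 94.3 mg/kg (4.58) and from 3.22 to 5.21 at 943 mg/kg (4.35). The 9.4 mg/kg group again had the highest minimum, and every group overlapped every other. Oas1a, an oligoadenylate synthetase that activates RNase L, ran from 3.93 to 5.82 in vehicle animals (median 5.33), from 4.22 to 6.35 at 0.1 mg/kg (5.10) and from 3.87 to 6.24 at 0.94 mg/kg (5.23). It ran from 5.19 to 6.29 at 9.4 mg/kg (5.53), from 4.66 to 6.54 at 94.3 mg/kg (5.69) and from 3.90 to 6.21 at 943 mg/kg (5.06). Of the 12 lowest animals for Mx1, 11 were among the 12 low for Rtp4, and for Oas1a all 12 were.

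**Figure D2:**
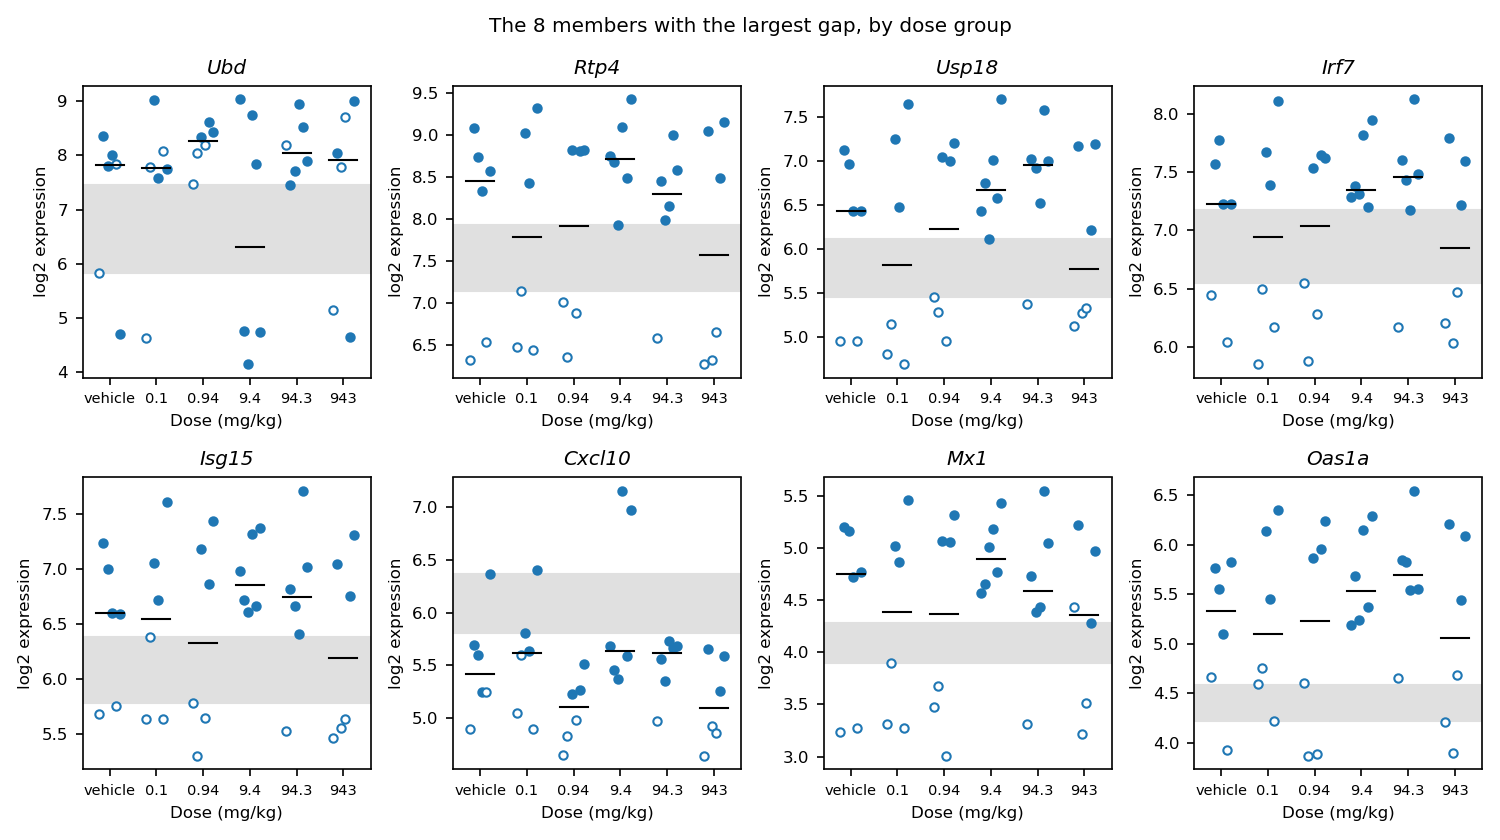
Log2 expression (vertical axes) of the 8 interferon response genes with the largest gap, by dose (mg/kg); points are animals, black lines the group medians, the grey band the largest gap, and open points the 12 animals in the lower range of Rtp4, Usp18 and Irf7. The 9.4 mg/kg group has no open point, and the open points of Ubd lie on both sides of its gap.

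The remaining 12 antiviral effectors ranged widely in how much they varied. Mx2 spanned 4.15 to 6.87 and both its probe sets had the same 12 lowest animals. Ifi27 had the same 12 animals below a gap of 0.28, at 11.25 to 11.80 against 12.08 to 12.48. Rsad2, which encodes the antiviral enzyme viperin, spanned 5.32 to 7.21, and Lgals3bp, a secreted glycoprotein, 5.32 to 7.18. These 4 genes had all of the 12 among their 12 lowest animals. Ifit3 (3.09 to 5.45), Bst2 (9.70 to 11.38), which tethers budding virus to the cell, Herc6 (3.08 to 5.15) and Ifi44 (5.20 to 6.33) had 11 of the 12. Oas1b (2.82 to 4.02) and Oasl (4.35 to 5.31) had 10, Ifit2 (6.90 to 8.58) had 8, and the exonuclease gene Isg20 (4.03 to 4.85) had 6. Mx1, Ifit3, Herc6, Oas1b and Isg20 had means below every array median, as did Nlrc5 and Zbp1, so the size of their differences is less certain.

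Both measured interferon-inducible GTPases followed the same animals, and the nucleic acid sensors did so in part. Gbp2, a guanylate-binding protein, spanned 4.97 to 7.45 and Igtp, an immunity-related GTPase, 6.45 to 8.65, with 11 and 12 of the 12 among their lowest animals. Dhx58 (4.41 to 5.29) and Ifih1 (5.82 to 6.48), RNA helicases that detect viral RNA in the cytosol, had 11 and 10. Zbp1 (3.43 to 4.11), a receptor for nucleic acids in the Z form, had 8. Trim25 (7.19 to 8.93), a ubiquitin ligase acting on the RNA sensor RIG-I, had 6. The 3 probe sets of Dhx58 had 10 or 11 of the 12, although those probe sets can share probes with one another.

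The chemokines and Ubd did not divide the animals as Rtp4 did. Ubd lay between 4.14 and 5.84 in 8 animals and between 7.45 and 9.04 in 28, a 29.7-fold range with a gap of 1.62, the largest of the 44. In vehicle animals it ran from 4.70 to 8.36 with a median of 7.82, at 0.1 mg/kg from 4.63 to 9.01 (7.77) and at 0.94 mg/kg from 7.47 to 8.62 (8.26). At 9.4 mg/kg it ran from 4.14 to 9.04 (6.30), at 94.3 mg/kg from 7.45 to 8.94 (8.04) and at 943 mg/kg from 4.64 to 9.01 (7.91). The 8 low animals were 2 vehicle animals, 1 at 0.1 mg/kg, 3 at 9.4 mg/kg and 2 at 943 mg/kg. Of these 8, 3 were among the 12 low for Rtp4 and 5 were among the 24 that were high for it. The lower range of Ubd was therefore a different set of animals, and it included 3 in the 9.4 mg/kg group, which had none in the lower range of Rtp4.

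Cxcl10, a chemokine that draws T cells and natural killer cells through the receptor Cxcr3, separated a few high animals from the rest. It lay between 6.36 and 7.15 in 4 animals and between 4.64 and 5.80 in 32. It ran from 4.90 to 6.36 in vehicle animals (median 5.42), from 4.89 to 6.40 at 0.1 mg/kg (5.62) and from 4.65 to 5.51 at 0.94 mg/kg (5.10). It ran from 5.37 to 7.15 at 9.4 mg/kg (5.64), from 4.98 to 5.73 at 94.3 mg/kg (5.61) and from 4.64 to 5.65 at 943 mg/kg (5.09). The 4 high animals were replicate 6 of the vehicle group, replicate 6 at 0.1 mg/kg and replicates 4 and 6 at 9.4 mg/kg. They included 0 of the 12 low for Rtp4, and 2 of them were in the lower range of Ubd. At the bottom Cxcl10 was like the other genes, with 11 of the 12 among its lowest animals, while Cxcl9 (5.37 to 7.59) had 9 and Cxcl11 (8.18 to 8.95), ligands of the same receptor, 7.

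The genes of antigen processing held the smallest spreads. The median SD within groups of these 9 genes was 0.15 log2, against 0.47 for the 16 antiviral effectors. Psmb8 (7.42 to 9.64), Psmb9 (7.19 to 8.82) and Psmb10 (6.84 to 7.92), the catalytic subunits of the immunoproteasome, varied most with Tap1 (6.06 to 7.59), a subunit of the transporter that carries peptides into the endoplasmic reticulum. Tap2 (6.27 to 6.78), the proteasome activator genes Psme1 (10.75 to 11.06) and Psme2 (9.15 to 9.70), and Tapbp (7.13 to 7.71), which loads peptides on MHC class I, stayed within a narrow range. B2m, the light chain of MHC class I, spanned 13.15 to 13.51, a 1.28-fold range, yet its 12 lowest animals on both probe sets were the same 12 as for Rtp4. Tap1 had 11 of the 12, Psmb8 10, Psmb9, Psmb10 and Tapbp 9, Psme1 8, and Tap2 and Psme2 7. Weak second probe sets of Psme1 and Tap1 had 3 each.

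The low animals recurred across genes and were spread over doses. The 12 animals in the lower range of Rtp4, Usp18 and Irf7 were 2 of 6 in vehicle, 3 of 6 at 0.1 mg/kg, 3 of 6 at 0.94 mg/kg, 0 of 6 at 9.4 mg/kg, 1 of 6 at 94.3 mg/kg and 3 of 6 at 943 mg/kg. By the replicate number in the labels, they were 5 of the 6 animals numbered 1, 2 each of those numbered 2, 4 and 5, 1 numbered 3, and 0 numbered 6. The labels do not say what the numbers stand for, and neither count was tested, since the animals were chosen by their values. Among the 41 genes that did not set this division, 25 had at least 10 of the 12 animals among their own 12 lowest, and 9 of these had all 12. With the 3 that set it, 28 of 44 genes had at least 10, against 0.651% of all probe sets (202), and 12 had all 12, against 0.209% (65). The median number shared was 10 over the 41 genes and 4 over all probe sets, and 0 probe sets had these 12 animals as their 12 highest.

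**Figure D3:**
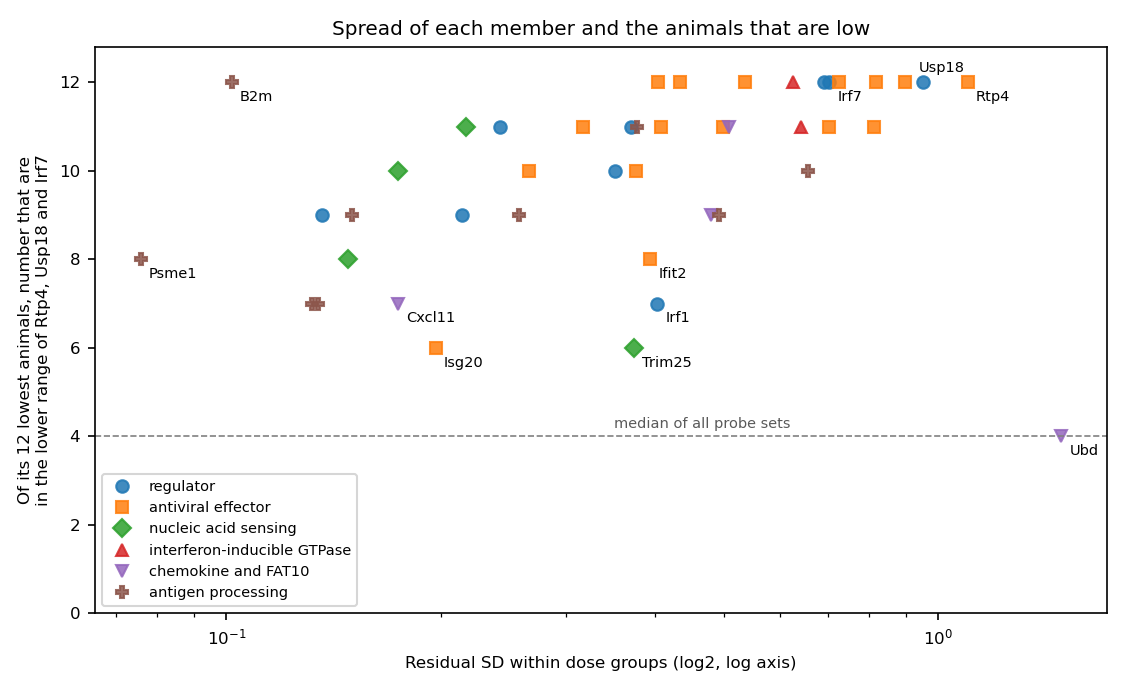
Number of a gene's 12 lowest animals that are in the lower range of Rtp4, Usp18 and Irf7 (vertical axis) against its SD within dose groups in log2 units (horizontal log axis), for 44 interferon response genes; symbols give roles and the dashed line is the median of all probe sets, 4. B2m shares all 12 animals at an SD of 0.10, and Ubd shares 4 at the largest SD, 1.49.

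By role, at least 10 of the 12 were shared by 14 of 16 antiviral effectors, 6 of 9 regulators, both GTPases, 2 of 4 nucleic acid sensing genes, 3 of 9 antigen processing genes and 1 of 4 genes for chemokines and FAT10. The motif GAAANNGAAA was in the promoter window of 18 of the 23 genes with at least 10 shared that had a window (78.3%), and in 5 of the 13 with fewer (38.5%). Split by role, it was in 9 of 12 windows of antiviral effectors (75.0%), 7 of 9 of antigen processing genes (77.8%) and 3 of 7 of regulators (42.9%). It was in 2 of 2 windows of GTPases, 1 of 2 of nucleic acid sensing genes and 1 of 4 of genes for chemokines and FAT10. The roles thus ranked differently for the motif than for shared animals. Among the promoters shown above, those of Oas1a, Irf7 and Cxcl10, with 11 or 12 shared, hold the motif. Mx1, with 11 shared, does not, and neither does Ubd, with 4. These shares are descriptions, with no test.

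Markers of Kupffer cells and macrophages were low in the same animals. Of 14 markers, 11 were measured and all 11 had means above the array medians. Their summed linear signal ran from 3132 to 4146 in the 12 animals and from 4697 to 5955 in the other 24, without overlap. Of the 11, 9 (all but Lyz2 with 6 and Cd163 with 9) had at least 10 of the 12 among their lowest animals. Clec4f, a lectin found on Kupffer cells, lay between 9.15 and 9.51 in the 12 and between 9.90 and 10.31 in the 24, a gap of 0.39. Cd5l, a protein secreted by macrophages, had a gap of 0.35 at the same place. The largest gap of the 11, 0.46 in Lyz2, lay elsewhere, with 6 animals at 8.62 to 9.02 and 30 at 9.48 to 10.40. By group the sum ran from 3248 to 5955 in vehicle, 3132 to 5655 at 0.1 mg/kg, 3439 to 5642 at 0.94 mg/kg, 4941.5 to 5782 at 9.4 mg/kg, 4146 to 5538 at 94.3 mg/kg and 3383 to 5302 at 943 mg/kg, so that its highest minimum was again at 9.4 mg/kg. The part of these cells in the interferon gene values was not tested.

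**Figure D4:**
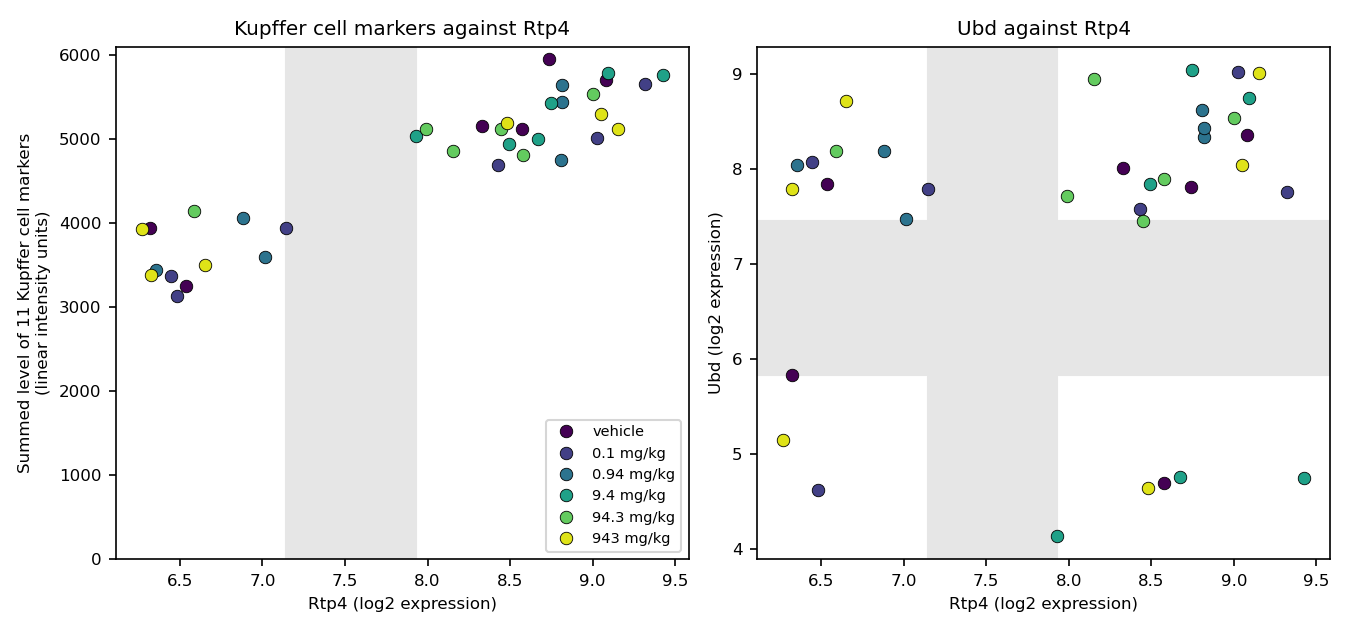
Each point is 1 liver, coloured by dose, with Rtp4 log2 expression on the horizontal axes; the vertical axes give the summed linear signal of 11 Kupffer cell and macrophage markers (left) and Ubd log2 expression (right), and grey bands are the gaps. The 12 livers low for Rtp4 have marker sums of 3132 to 4146 against 4697 to 5955 in the others, while Ubd-low livers occur on both sides of the Rtp4 gap.

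Other cell types differed in how far they followed this division. For T cells and natural killer cells 16 of 18 markers were measured, 11 of them with means below every array median, Cd3e, Cd3d and Cd3g included. Their sum ran from 332 to 414 in the 12 animals and from 407 to 629 in the 24, and 11 of the 12 lowest sums were among the 12. Single markers followed less. Only 4 of the 16 had at least 10 of the 12 among their lowest animals: Ccl5 and Prf1 (12), Gzma (11) and Nkg7 (10). The median was 7, with 7 each for Cd3e, Cd3d and Cd3g and 6 each for Cd4 and Cd8a. Of the other T cell genes, Lck and Cd8b had 6 each and Cd2 had 4. Of the other cytotoxic and natural killer markers, Gzmb and Klrd1 had 9 each, Ncr1 8 and Gzmk 6, all with means below every array median. Of the 12 lowest sums, 9 were among the 12 for dendritic cells (4 of 8 markers measured, 3 of them dim), 7 for B cells (5 of 8 measured, 3 of them dim), 6 for endothelium, 4 each for hepatocytes, cholangiocytes and neutrophils, and 2 for stellate cells. Among the 4 dendritic cell markers, Irf8 had the highest mean and is also counted below with the sensors and adaptors. Irf8 and Clec9a had 9 each of the 12 among their lowest animals, and Flt3 and Itgax 5 each. The neutrophil markers S100a8, Cxcr2, Csf3r, Camp and Mmp8 were dim. The hepatocyte sum ran from 94402 to 97040 in the 12 and from 93664 to 98294 in the 24, and so overlapped fully. The part of lymphocytes in the interferon gene values was not tested either.

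Other genes of the pathway showed which of its layers shared the pattern. Of 49 further interferon-induced genes 36 were measured, and 17 of them had at least 10 of the 12 animals among their lowest. Their summed signal ran from 7220 to 8394 in the 12 animals and from 8956 to 11113 in the 24. Ly6e (5.13 to 5.81 against 6.24 to 7.24) and the RNA helicase gene Ddx60 (2.43 to 3.03 against 3.45 to 4.54) had gaps of 0.43 and 0.42 at the same place, and Ddx60 is dim. None of these genes met the limit of 0.5. Of 15 receptor and signalling genes 14 were measured and shared at most 7 of the 12. Of 20 sensors and adaptors 12 were measured, and Tlr7, a sensor of single-stranded RNA, shared the most, 10, although it is dim. Of 17 genes for interferons and related cytokines 8 were measured, 5 of them dim, Ifnb1 and Ifng included, and they shared at most 9.

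Each dose was compared with vehicle to find whether the compound moved these genes, and 0 of the 44 passed. The test was limma on all 36 arrays with Benjamini-Hochberg adjustment over all 31042 probe sets, and passing meant an adjusted p under 0.05. In each of the 5 comparisons, in the F test over the doses and in the trend over dose rank, 0 genes passed, against 0.0% of all probe sets, and an unmoderated linear model also gave 0. At an unadjusted p under 0.05, the count was 0 of 44 at 0.1 mg/kg (5.62% of all probe sets), 0 at 0.94 mg/kg (4.16%), 2 at 9.4 mg/kg (4.85%), 1 at 94.3 mg/kg (6.9%) and 0 at 943 mg/kg (5.74%). It was 2 in the F test (5.35%) and 0 in the trend (5.68%). These 3 calls at 9.4 and 94.3 mg/kg were on 2 genes, Stat2 at both doses and Cxcl11 at 9.4 mg/kg, and all were higher than in vehicle, where 2.21% and 3.68% of all probe sets were called in that direction. For none of the 44 did all 6 animals of a dose lie above every vehicle animal, against 0.113%, 0.103%, 0.0934%, 0.161% and 0.164% of all probe sets from the lowest to the highest dose. For none did all 6 lie below, against 0.122%, 0.103%, 0.0902%, 0.135% and 0.0966%.

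At 9.4 mg/kg most of the genes had a higher mean than in vehicle. There 40 of 44 estimates were above 0, against 47.1% of all probe sets, with a median of 0.22 log2 beside -0.01 for all probe sets. At 0.1 mg/kg 13 of 44 were above 0 (49.9% of all probe sets) with a median of -0.05, and at 0.94 mg/kg 11 (49.2%) with a median of -0.07. At 94.3 mg/kg 31 were above 0 (51.6%) with a median of 0.05, and at 943 mg/kg 10 (49.7%) with a median of -0.08. All 5 comparisons share the same 6 vehicle animals and the genes share animals, so these counts are descriptions without a test. The low animals were 0 of 6 at 9.4 mg/kg and 2 of 6 in vehicle. Those animals were chosen by Rtp4, Usp18 and Irf7, which are among the 44 genes, so this is not a separate observation. Leaving out single animals turned the sign of the median at 3 doses. At 0.1 mg/kg it was 0.05 without replicate 1 and 0.03 without replicate 5 of that dose, and 0.01 without vehicle replicate 2 or 3. At 0.94 mg/kg it was 0.01 without replicate 2 or 4 of that dose or vehicle replicate 2. At 94.3 mg/kg it was -0.02 without vehicle replicate 1 and -0.01 without vehicle replicate 5. The 9.4 mg/kg median lay between 0.16 without vehicle replicate 5 and 0.31 without vehicle replicate 2, and the 943 mg/kg median between -0.21 without replicate 6 and -0.0011 without replicate 3 of that dose.

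**Figure D5:**
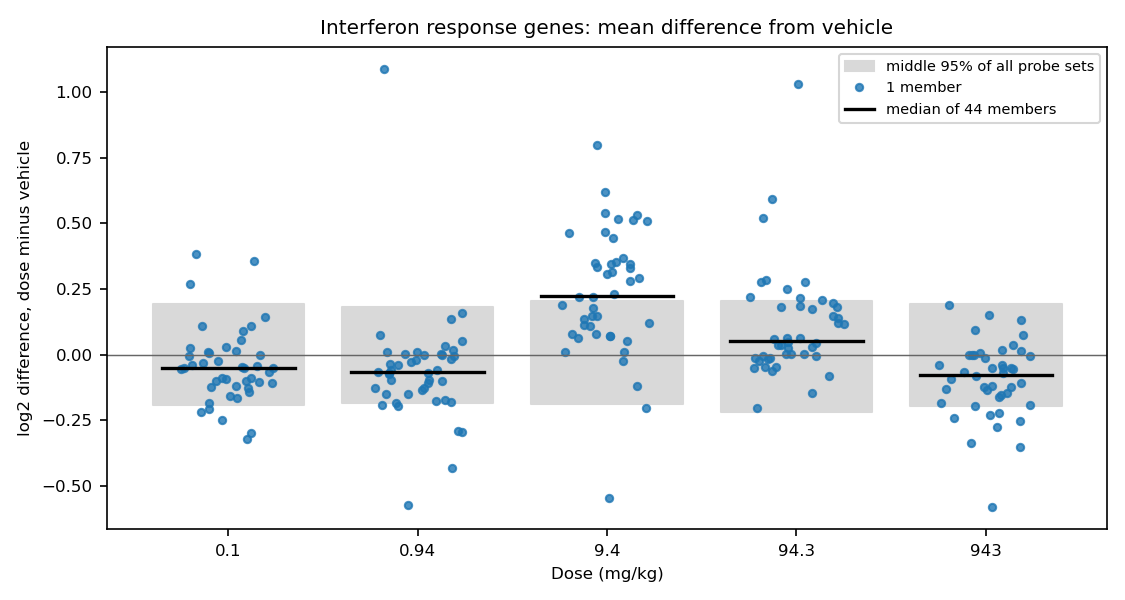
Mean log2 difference from vehicle (vertical axis) at each dose in mg/kg for the 44 interferon response genes (points); black lines are their medians and grey bands hold the middle 95% of all probe sets. The median is 0.22 at 9.4 mg/kg and between -0.08 and 0.05 at the other doses.

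The genes that divided the animals had wide intervals at every dose. Rtp4 differed from vehicle by 0.80 ± 0.59 (SE, n = 6 per group) at 9.4 mg/kg, with a 95% interval from -0.39 to 1.98, and by -0.27 ± 0.59 at 943 mg/kg, from -1.46 to 0.91. The first was 0.47 without vehicle replicate 1, and the second was -0.60 without vehicle replicate 1 and turned to 0.0025 without replicate 1 of that dose. Usp18 differed by 0.62 ± 0.51 at 9.4 mg/kg and by 0.59 ± 0.51 at 94.3 mg/kg, and Irf7 by 0.44 ± 0.38 at 9.4 mg/kg. Without vehicle replicate 5 these were 0.38, 0.35 and 0.24. Ubd differed by 1.09 ± 0.79 at 0.94 mg/kg, by 1.03 ± 0.79 at 94.3 mg/kg and by -0.54 ± 0.79 at 9.4 mg/kg, where the interval ran from -2.15 to 1.06. Without vehicle replicate 6 the first 2 values were 0.61 and 0.55, and the last was -1.04 without replicate 1 and -0.06 without replicate 3 of that dose. Differences of 2-fold in these genes in either direction thus lay inside some of these intervals, and the data do not show that the genes were unaffected. The median SE of the 44 genes was 0.21 log2, against 0.083 for all probe sets. Slopes over dose rank were above 0 for 31 of 44 genes, against 50.8% of all probe sets.

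Among the 44 genes, the smallest unadjusted p at 9.4 and 94.3 mg/kg was that of Stat2. It ran from 7.97 to 8.35 in vehicle animals (median 8.16), from 8.24 to 8.52 at 9.4 mg/kg (8.30) and from 8.06 to 8.51 at 94.3 mg/kg (8.36). It was 0.19 ± 0.079 higher at 9.4 mg/kg (limma, adjusted p = 0.980) and 0.18 ± 0.079 higher at 94.3 mg/kg (limma, adjusted p = 0.656), and 2 and 3 of the 6 animals lay above the vehicle range. Neither difference passed, and the groups overlapped. Cxcl11 and Cxcl10 followed at 9.4 mg/kg with 0.22 ± 0.098 and 0.53 ± 0.27 (both with limma adjusted p = 0.980), and for each 2 of 6 animals were above the vehicle range. The Cxcl10 estimate was 0.31 without replicate 4 and 0.34 without replicate 6 of that dose.

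At the lower doses the smallest p-values belonged to Zbp1, at -0.16 ± 0.085 at 0.1 mg/kg (limma, adjusted p = 0.897) and -0.15 ± 0.085 at 0.94 mg/kg (limma, adjusted p = 0.999), with 4 of 6 animals below the vehicle range at each dose. Dtx3l (-0.32 ± 0.19) and Cxcl11 (0.14 ± 0.098) came next at 0.1 mg/kg, and Gbp2 (-0.57 ± 0.34) and Cxcl11 (0.16 ± 0.098) at 0.94 mg/kg. At 94.3 mg/kg Stat2 was followed by Isg20 (0.17 ± 0.11) and Ubd. None of these passed. At 943 mg/kg they were Isg20 at 0.19 ± 0.11 (limma, adjusted p = 0.868), Rsad2 at -0.33 ± 0.22 and Cxcl10 at -0.35 ± 0.27. Rsad2 was -0.12 without replicate 3 of that dose, and Cxcl10 was -0.18 without vehicle replicate 6. Without vehicle replicate 1 Isg20 was 0.12 at 943 mg/kg and 0.11 at 94.3 mg/kg, without vehicle replicate 2 Zbp1 was -0.10 at 0.1 mg/kg and -0.09 at 0.94 mg/kg, and without replicate 1 of the 0.1 mg/kg dose Cxcl11 was 0.24 at that dose. In the F test they were Cxcl10 (F = 3.18, limma adjusted p = 0.916), Stat2 (F = 2.70, adjusted p = 0.918) and Zbp1 (F = 2.21, adjusted p = 0.931). In the trend they were Isg20, with a slope of 0.033 ± 0.018 log2 per dose rank (limma, adjusted p = 0.875), Stat2 (0.022 ± 0.014) and Dhx58.

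By role, the 9 regulators had a median difference from vehicle of -0.11 at 0.1 mg/kg, -0.07 at 0.94 mg/kg, 0.34 at 9.4 mg/kg, 0.12 at 94.3 mg/kg and -0.14 at 943 mg/kg. The 16 antiviral effectors had -0.06, -0.10, 0.30, 0.18 and -0.12 in the same order. The medians of the 9 antigen processing genes lay between -0.04 and 0.06, with single genes from -0.20 to 0.35. All 9 regulators and 15 of 16 effectors were above 0 at 9.4 mg/kg, and none of them passed the test. None of the further pathway genes passed at any dose either. At 943 mg/kg those with the smallest p were Ptpn11, a phosphatase in receptor signalling, at -0.16 ± 0.060 (limma, adjusted p = 0.865), and the type I receptor gene Ifnar2 at 0.19 ± 0.084 (limma, adjusted p = 0.865).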

How the data were processed

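Liver RNA of 36 rats was measured on Affymetrix arrays, 1 per animal. The deposited values are log2 expression per probe set, for which the submitters' processing notes name RMA and affy as the authors' tools, with no version. The design text names R/maanova at a false discovery rate for the dose comparisons, and no result of it was used. Here, 57 control probe sets were left out and 31042 were tested with limma 3.58.1 in R 4.3.3 (lmFit, eBayes, two-sided). For the dose comparisons and the F test, the model over all 36 arrays held a vehicle mean and a difference from vehicle for each dose. Adjustment was Benjamini-Hochberg within each comparison. On simulated data, 98% of 200 probe sets changed by 1 log2 at 943 mg/kg among 31042 were recovered. Recovery was not tested for the interferon response genes, so this share cannot be taken to hold for them. At 943 mg/kg the median SE of these genes was 0.21 log2 and the largest 0.79, against a median of 0.083 for all probe sets. Gaps, ranges and shared low animals were counted with no test. Per the labels each array is a separate animal, whose number limits the precision. No batch labels were given. The genes named were the 8 with the largest gap, the 3 with the smallest p at each dose, in the F test and in the trend, 2 further pathway genes at 943 mg/kg, and every listed gene by role. The list, the further pathway genes, the cell markers and these rules were chosen with earlier results of these data known. Alternatives were filters, variance models, array weights, normalization, the replicate number as a block, gap limits and leaving out each animal.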

Additional observations from a re-analysis of the deposited data

Results flagged for a closer look

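Of 96 values per gene and dose group examined in 16 genes, 2 held an animal far from the other 5, by a rule under which chance marks about 1 in 20 groups. Ubd was 4.63 in replicate 1 at 0.1 mg/kg, where the nearest of the other animals was 7.58, and this animal is also in the lower range of Rtp4, Usp18 and Irf7. Zbp1 was 3.76 in replicate 1 at 9.4 mg/kg, where the nearest was 3.89.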

How the results depend on the processing

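The number of genes dividing the animals was 6, and it was 2 (Rtp4 and Ubd) with a gap of at least 0.7 and 1 (Ubd) with values centred on dose group means; leaving out single animals gave 5 to 9, with 9 without replicate 2 at 0.1 mg/kg. It was 6 with a gap of at least 0.4, with 3 animals a side, after quantile normalization again and over any probe set, and 5 with 6 animals a side. The number of genes sharing at least 10 of the 12 animals, a count added after seeing the data, was 28. It was 27 over every probe set and 22 on centred values. Without single animals it was 28 to 30, where the limit was all but 2 of the low animals that remained. The number passing was 0 in each of the 7 dose tests under every alternative run, leaving out each animal included (0 to 0), and the smallest adjusted p was 0.367. Same-numbered animals were on average little more alike than others, with mean correlations of 0.02 and -0.0030. Of 90 same-numbered pairs, 18 correlated above 0.1 (range -0.27 to 0.29), and 8 of 36 animals correlated best with their own number. No such counts are given for differently numbered pairs, so nothing is concluded from these. These are not the correlations of whole arrays given above, which were 0.989 or more. In the lower range of Rtp4, Usp18 and Irf7 were 5 of the 6 animals numbered 1 and 0 of the 6 numbered 6. The part of the replicate number in these genes was not tested. With the replicate number as a block, 0 genes passed in each test. Leaving out single animals, added after seeing the data for the genes outside the smallest p, turned the Rtp4 difference at 943 mg/kg from -0.27 to 0.0025 without replicate 1 of that dose. The differences of the genes with the smallest p kept their direction under the alternatives run. The 6 animals per group limit what could be called for genes with an SD near 1 log2.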

Other observations

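Genes outside the lists were searched for the division into ranges. Each gene that met the gap rule was compared with Ubd by the animals upper in both, as a share of those upper in either. No gene reached 80%. With Rtp4 in place of Ubd, a choice made after the values were seen, 2 genes did. Ms4a6a, a membrane protein gene expressed in macrophages, lay between 4.53 and 5.30 in the same 12 animals as Rtp4 and between 5.89 and 7.18 in the other 24, a gap of 0.59. Slc15a4, a lysosomal peptide and histidine transporter gene, lay between 4.64 and 5.09 in 10 of those 12 animals and between 5.97 and 6.96 in 26, a gap of 0.88. Among the stellate cell and fibroblast markers, Lum, which encodes the matrix protein lumican, met the rule with 18 animals on each side (3.42 to 5.80 and 6.33 to 7.47), and 5 of its 12 lowest animals were among the 12 low for Rtp4.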
